A study of Vicia sativa with 8 samples.

Results

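The 6 floral organs of common vetch (Vicia sativa, cultivar Lanjian 3) were compared as one class with the 2 vegetative organs of the same cultivar. A unigene, which is an assembled transcript sequence, was a member when its level in every floral library lay above the levels in both vegetative libraries, or when it lay below both in every floral library. Of 71553 unigenes with a read, 7788 were members: 5051 were higher in every floral organ (7.06% of all unigenes) and 2737 were lower in every floral organ (3.83%). The other 63765 unigenes were neither. The rule looks at order alone, so it also admits unigenes that differ by a few reads.

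RNA-Seq gave 1 library per organ. Sepals, petals of 3 types (dorsal, lateral and ventral), stamens and carpels were dissected from flowers at late pre-anthesis (floral stage 12) on plants of about 45 days, and the flowers of many plants were pooled. Leaves and roots came from seedlings of 2 weeks, so organ class and plant age cannot be told apart. The labels name no treatment. The plants that gave the floral organs were grown in a greenhouse, and the study does not state how the seedlings were grown. The libraries were of like depth, the deepest (sepals) holding 1.17 times the uniquely aligned reads of the shallowest (leaves). There are no replicates, so no difference has a replicate check, no test between the classes was run, and all intervals cover counting error only. In whole organs, fewer cells of a type and less RNA per cell cannot be told apart.

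In flowering plants the identity of floral organs is set by transcription factors of the MADS-box family that act in combinations. B-class factors (APETALA3 and PISTILLATA in Arabidopsis) act in petals and stamens, C-class factors act in stamens and carpels, and SEPALLATA factors are partners of the others in all floral whorls. Seedling leaves carry out photosynthesis, and roots take up water and mineral ions such as nitrate and potassium.

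The study designed qRT-PCR primers for 61 unigenes, including its internal control Unigene68614. Of the 61 unigenes, 14 were higher in every floral organ (beside 7.06% of all unigenes) and 0 were lower. The study chose these unigenes, and 2 of the 14, Unigene58410 and Unigene7101, were no longer higher with TMM scaling. Primer pairs are printed for the 5 that were higher by at least 2-fold (defined below), because they mark where each unigene can be measured again. The study reported that qRT-PCR correlated with sequencing for most but not all unigenes it examined. Whether it did so for these 5 was not checked here. All letters are in lower case and are written 5′ to 3′.
Unigene67121 forward: ccaaaagtactgccttgatgttag
Unigene67121 reverse: ctctcattgctcaaagtaaacaaga
Unigene56653 forward: acaatccccatccttgtgc
Unigene56653 reverse: tgagttgattccgtttggtg
Unigene71433 forward: gcttcaacaataggatgatttgaa
Unigene71433 reverse: cctgttacttcaggtcttagttggt
Unigene46279 forward: actctaagcaacacgaggatgaa
Unigene46279 reverse: tgattattcaaaatggtgggact
Unigene52509 forward: aaaaagcatgtgattcggttc
Unigene52509 reverse: acggaccagtttggtcttga

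Markers fixed by name followed the labels for petals, stamens and leaves, but the sums of the carpel and root lists did not single out these organs. The 3 unigenes found by B-class names, 1 of which matched petunia pMADS4 and may not be of this class, summed to 860, 822, 945 and 644 RPKM (reads divided by the length of the unigene and by the depth of its library) in dorsal petals, lateral petals, ventral petals and stamens, and to 11.8 RPKM in sepals and 10.1 RPKM in carpels, against 0.984 RPKM in leaves and 0 in roots. The 90 pollen and anther unigenes summed to 8861 RPKM in stamens and to between 1916 and 4701 RPKM in the other floral organs, against 1169 RPKM in leaves and 1513 RPKM in roots. The 9 mesophyll unigenes summed to between 678 and 6522 RPKM in the floral organs, highest in sepals, against 22367 RPKM in leaves and 1048 RPKM in roots. The 5 carpel marker unigenes summed to 72.0 RPKM in carpels and to between 35.3 and 63.8 RPKM in the other floral organs, against 38.9 RPKM in leaves and 73.9 RPKM in roots. Among them, the CRABS CLAW Unigene7160 had 31.6 RPKM in carpels, 4.51 RPKM in stamens, 1.17 RPKM in ventral petals and 0 elsewhere. The stigma-specific-like Unigene7179 had reads in roots alone (40.5 RPKM), and the other members were not highest in carpels. The C-class unigene, given below, was highest in carpels and next in stamens. The 53 root marker unigenes summed to between 1035 and 2577 RPKM in the floral organs, against 2354 RPKM in leaves and 1733 RPKM in roots.

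The distance between the classes was measured as a gap. For a higher unigene the gap is the RPKM of its lowest floral library over that of its highest vegetative library, and for a lower unigene it is the RPKM of its lower vegetative library over that of its highest floral library. The median gap was 1.36 over the higher unigenes and 1.20 over the lower ones. A 95% interval from the reads behind the gap lay above 1 for 1475 of the higher unigenes (2.06% of all unigenes) and for 491 of the lower ones (0.686%). A smaller set was therefore described in detail, in which the gap was at least 2-fold and every library of the class with the higher level held at least 10 reads. This set held 991 unigenes that were higher (1.38% of all unigenes, and 3.13% of the 31672 with at least 10 reads in every floral library) and 264 that were lower (0.369%, and 0.767% of the 34412 with at least 10 reads in both leaves and roots). The interval lay above 1 for 910 of the 991 and for 228 of the 264. The same reads chose these members, so these counts are no separate check. Where the lower class held no read at all, its level was set to 3 reads in 1 library. The gap is then a ratio to this floor. Its interval uses the reads as counted, has no upper end and can start below the ratio. At the limit, Unigene44007 was just inside with a gap of 2.01 and Unigene71728 just outside with 1.9961 among higher unigenes, and Unigene66731 was just inside with 2.01 and Unigene15349 just outside with 1.9979 among lower ones.

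The balance of the 2 directions depended on how libraries were scaled. Higher unigenes made up 64.9% of all members and 79.0% of the 2-fold set on RPKM. With TMM factors, which allow for differences in the make-up of libraries, they made up 49.7% and 70.9%, with 4494 higher and 4549 lower unigenes. Over unigenes with 30 or more reads on average, the median log2 ratio of the floral mean to the vegetative mean was 0.17 on RPKM and 0.02 after TMM. The 2-fold set kept 830 of its higher and 252 of its lower members under TMM.

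The unigenes higher by at least 2-fold took 2.12% of the reads in sepals, 3.85%, 4.28% and 4.97% in dorsal, lateral and ventral petals, 4.12% in stamens and 4.57% in carpels, against 0.301% in leaves and 0.295% in roots. Those lower by at least 2-fold took 0.142%, 0.0827%, 0.0774%, 0.0842%, 0.0881% and 0.0681% of the reads in the same floral organs, against 0.720% in leaves and 1.37% in roots. Since the rule chose these unigenes by level, the shares describe the size of the sets and nothing more. The higher set had about even levels in leaves and roots, with leaves above roots in 500 unigenes and roots above leaves in 437. In the lower set roots lay above leaves in 173 unigenes and leaves above roots in 91, and over all unigenes these counts were 41260 and 25334, so the lower set was close to the background.

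**Figure D1:**
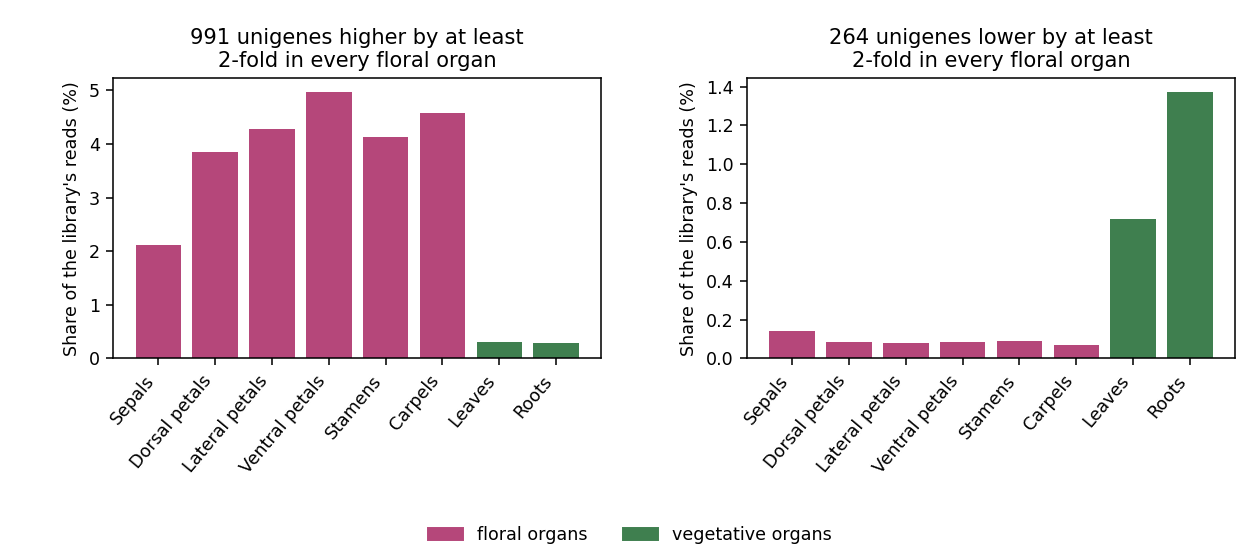
Share of each library's reads (%, vertical axis) in the 991 unigenes higher (left) and the 264 unigenes lower (right) by at least 2-fold in every floral organ, with 1 bar per library, floral organs on the left and vegetative organs on the right of each panel. The higher set took 2.12% to 4.97% in floral organs and about 0.3% in leaves and in roots, and the lower set took at most 0.142% in a floral organ, 0.720% in leaves and 1.37% in roots.

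Members of the 2-fold set were more often similar to a known protein and were longer than unigenes in general. A match in the nr protein database was given for 74.2% of the higher and 81.4% of the lower 2-fold members, beside 64.9% of all unigenes. Their median lengths were 326 and 391 bp, beside 302 bp over all unigenes. The 2-fold set requires at least 10 reads in each library of 1 class, and the part of this requirement in these values was not tested.

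Levels among the floral organs differed widely within the higher set. Over the 991 higher unigenes the highest floral library exceeded the lowest by a median of 4.87-fold. The floral organs lay within 2-fold of each other in 85 of these unigenes and spanned more than 10-fold in 239. Over all unigenes with a read in every floral library the median was 5.07-fold. That group needs fewer reads than the 991, and counting error widens ratios of few reads, so the 2 medians cannot be compared directly. Sepals were the lowest floral organ in 387 of the 991 and carpels in 286, whereas ventral petals were lowest in 14. Over all 71553 unigenes sepals were counted as lowest in 13083, carpels in 26070 and ventral petals in 4892. A unigene without a read in several floral organs was counted for the earliest of them in the order sepals, petals, stamens, carpels. Such ties cannot occur in the 991, which hold reads in every floral library, so these background counts cannot be compared directly with theirs. Among the 991, ventral petals were highest in 245, carpels in 210, stamens in 204, lateral petals in 176, dorsal petals in 115 and sepals in 41. Among the 264 lower unigenes, sepals were counted as the highest floral organ in 127 and each other floral organ in 14 to 37. The 127 include 1 unigene without a read in any floral library. Over all unigenes with a read in a floral library, sepals were highest in 14503. In both directions sepals were the floral organ nearest to the vegetative level in more members than any other.

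**Figure D2:**
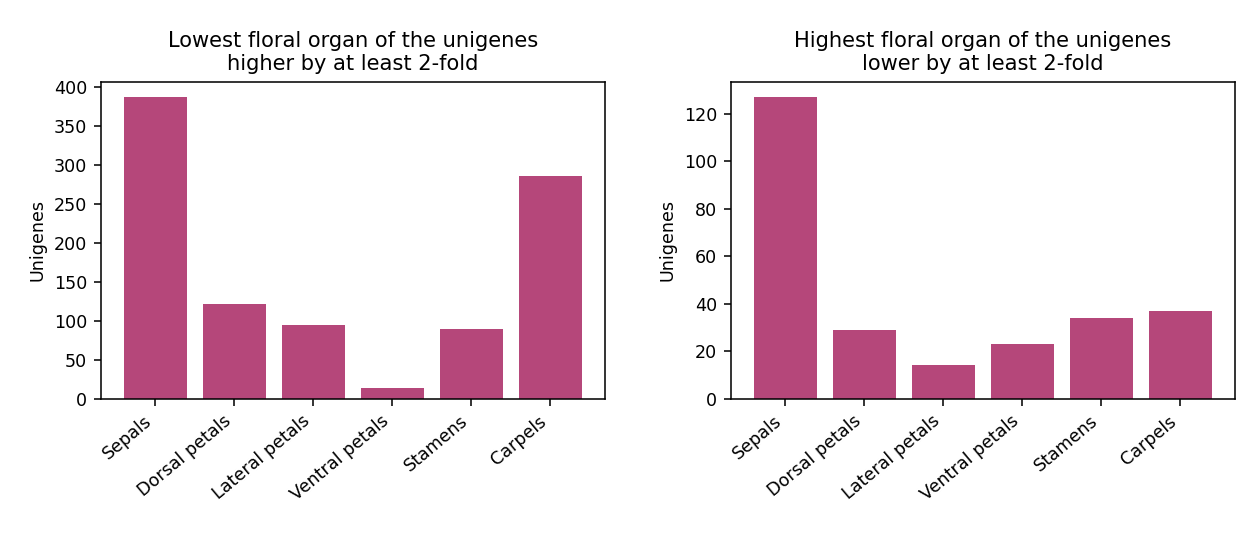
Number of unigenes (vertical axis) for which each floral organ was the lowest floral library of the 991 unigenes higher by at least 2-fold (left) and the highest floral library of the 264 unigenes lower by at least 2-fold (right). Sepals take 387 and 127 unigenes, and carpels take 286 and 37. The 127 include 1 unigene without a read in any floral library.

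MADS-box factors had the largest share of higher members among the 33 gene lists. Of 44 MADS-box unigenes, 15 were higher (34.1%, beside 7.06% of all unigenes), 1 was lower and 9 were higher by at least 2-fold (20.5%, beside 1.38%). Their median log2 ratio of floral to vegetative class means, with 1 RPKM added to each, was 3.32, beside 0.14 over all unigenes. Unigenes can be fragments of one gene, so these are not counts of genes. The list was found by name and leaves out Unigene66892 and Unigene59869, both described below. The second of these was lower by at least 2-fold. In what follows, floral values stand in the order sepals, dorsal, lateral and ventral petals, stamens and carpels.

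Unigene56502, a MADS-box unigene of the SEPALLATA group, had 205, 475, 444, 398, 613 and 379 RPKM in the floral organs, against 0 in both leaves and roots. It was present in every floral organ and had no read in a vegetative one, and the gap against 3 reads was 146 (interval from 119). Unigene32641, named SEPALLATA1, had 158, 427, 513, 505, 406 and 201 RPKM in the floral organs, against 0 in leaves and 2.54 RPKM in roots (gap 62.0, interval 20.9 to 303). Unigene38077, a SEPALLATA1-like unigene, had 104, 193, 174, 177, 438 and 183 RPKM in the floral organs, against 0 in leaves and 0.748 RPKM in roots (gap 138, interval 24.5 to 5506). All 3 were lowest among floral organs in sepals, and the classes were far from overlapping.

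Unigene66892, whose nr name says no more than transcription factor and which the study's annotation places in the SEPALLATA group, had 39.6, 106, 162, 205, 129 and 28.1 RPKM in the floral organs, against 0.249 RPKM in leaves and 0.228 RPKM in roots. The gap was 113 (interval 19.9 to 4507), with 1 read in each vegetative library. Unigene51726, a tomato-like MADS-box unigene, had 31.7, 129, 169, 320, 233 and 43.3 RPKM in the floral organs, against 0.565 RPKM in leaves and 0 in roots. Unigene28176, SEPALLATA3-like, had 18.8, 96.0, 125, 214, 143 and 29.7 RPKM in the floral organs, against 1.005 RPKM in leaves and 0 in roots. In all 3, petals and stamens lay above sepals and carpels.

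A further 3 MADS-box unigenes of the 2-fold set had no read in leaves or roots. Unigene53977, which matched a pea MADS-box protein, had 41.6, 107, 100, 103, 88.4 and 38.8 RPKM in the floral organs, against 0 in both leaves and roots. Unigene57242, a soybean-like MADS-box unigene, had 53.8, 24.3, 31.6, 55.2, 16.6 and 20.4 RPKM in the floral organs, against 0 in both leaves and roots. It was the member of this group with sepals among the 2 highest floral organs. Unigene54596, a MADS-domain unigene, had 7.77, 126, 100, 100, 89.8 and 5.48 RPKM in the floral organs, against 0 in both leaves and roots.

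B-class unigenes met the rule on small numbers of reads in sepals and carpels. Unigene63356, APETALA3-like, had 6.70, 206, 140, 157, 120 and 7.74 RPKM in the floral organs, against 0.984 RPKM in leaves and 0 in roots (gap 6.82, interval 2.07 to 35.4). Unigene20940, PISTILLATA-like, had 5.07, 653, 679, 780, 506 and 2.34 RPKM in the floral organs, against 0 in both leaves and roots. Unigene55020, a PISTILLATA-like unigene close to one of Lotus, was not a member, with 5.94, 224, 225, 253, 210 and 0 RPKM in the floral organs, against 0 in both leaves and roots. Petals and stamens thus lay far above sepals and carpels in all 3, and Unigene55020 missed the rule on carpels alone. The SHATTERPROOF-like Unigene48885, of the C class, was not a member either, with 1.59, 0, 0, 0, 29.1 and 44.0 RPKM in the floral organs, against 3.10 RPKM in leaves and 0 in roots.

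**Figure D3:**
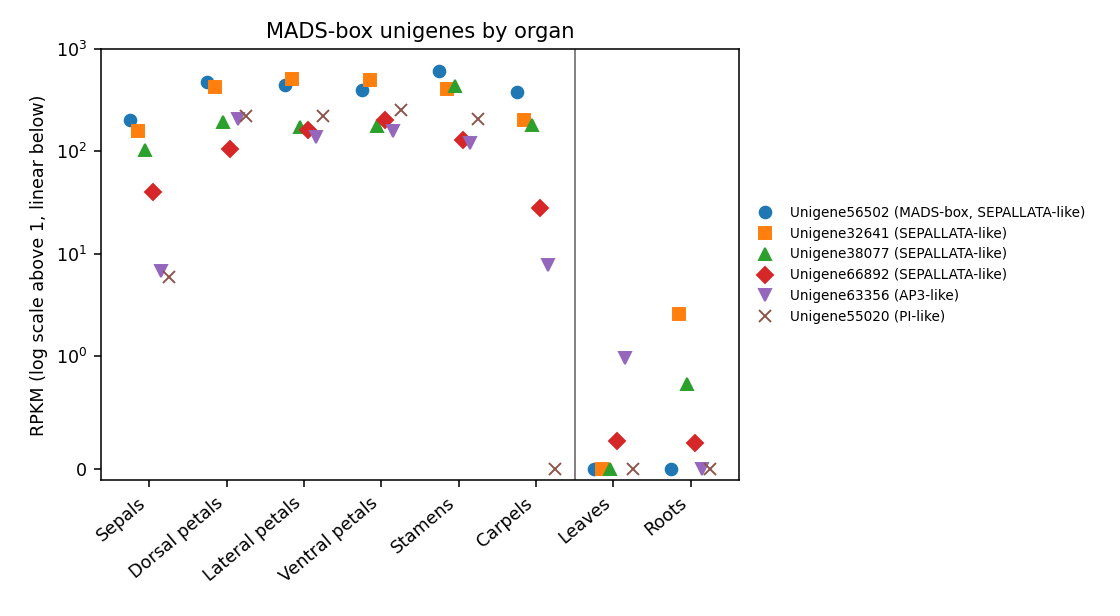
RPKM (vertical axis, logarithmic above 1 and linear below) of 6 MADS-box unigenes in each of the 8 libraries, 1 marker per unigene, with floral organs left of the grey line and vegetative organs right of it. The 4 SEPALLATA-like unigenes lie between 28.1 and 613 RPKM in every floral organ and at or below 2.54 RPKM in leaves and roots, while the AP3-like and PI-like unigenes fall to 7.74 RPKM or less in sepals and carpels.

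The 12 named unigenes with the largest gaps among higher unigenes, of those with at least 100 reads in every floral library, included 4 of the MADS-box group above and 2 of the MtN3 family. MtN3 proteins are sugar transporters also called SWEET. Unigene51931 of this family had 99.4, 370, 384, 408, 375 and 205 RPKM in the floral organs, against 0.561 RPKM in leaves and 0 in roots (gap 177, interval 31.5 to 7032). Unigene52811 of the same family had 168, 98.7, 62.7, 152, 244 and 299 RPKM in the floral organs, against 2.17 RPKM in leaves and 0.498 RPKM in roots (gap 28.9, interval 11.0 to 108). They differed in the order of the floral organs: the first was lowest in sepals and the second in lateral petals.

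The widest gap in this set was that of Unigene45791, which matched a rice locus with no described function. It had 147, 1192, 1434, 707, 440 and 219 RPKM in the floral organs, against 0 in leaves and 0.623 RPKM in roots, where a single read was counted. The gap was 236 with an interval from 42.0 to 9361. Unigene61486, which matched a Mutator transposon protein of maize, had 61.1, 203, 601, 1047, 157 and 57.5 RPKM in the floral organs, against 0.368 RPKM in leaves and 0.337 RPKM in roots (gap 156, interval 27.7 to 6216). Both were highest in petals, the first in lateral and the second in ventral petals.

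Unigene67758 had a nearly even level across the flower. It matched a dehydration-responsive element-binding protein, a family of factors known for cold and drought responses in Arabidopsis. It had 83.6, 94.8, 91.0, 128, 101 and 88.7 RPKM in the floral organs, against 0.456 RPKM in leaves and 0.837 RPKM in roots (gap 99.9, interval 38.7 to 368). Its highest floral library was less than 2 times its lowest, unlike those of Unigene45791 and Unigene61486. The 12 also held Unigene60785, named after a rice meiosis gene, with a gap of 38.6, Unigene47726, an acyltransferase, with 29.2, and Unigene39835, an expressed rice protein, with 27.9.

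The 12 named unigenes with the largest gaps among lower unigenes, of those with at least 100 reads in both leaves and roots, included reductases, transport proteins and kinases. Unigene52590, an aldo/keto reductase, had 5.60, 0.508, 0.996, 1.56, 1.09 and 0 RPKM in the floral organs, against 142 RPKM in leaves and 328 RPKM in roots (gap 25.4, interval 14.3 to 49.9). Unigene55617, a codeinone reductase-like unigene of the same enzyme group, had 3.72, 0, 0.441, 2.30, 1.93 and 0.955 RPKM in the floral organs, against 68.0 RPKM in leaves and 206 RPKM in roots (gap 18.3, interval 9.35 to 40.8). Both were near absent from the flower and highest in roots.

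Transport proteins of the vacuole and of potassium uptake were among them. Unigene17939, a tonoplast intrinsic aquaporin, which carries water into and out of the vacuole, had 1.42, 0.193, 2.46, 0.197, 1.45 and 0.613 RPKM in the floral organs, against 50.9 RPKM in leaves and 98.1 RPKM in roots (gap 20.7, interval 11.9 to 39.5). It was the single aquaporin unigene lower by at least 2-fold of 33 in that list. Unigene2036, an AKT1-like potassium channel, had 2.70, 2.33, 2.37, 4.68, 3.53 and 0.0917 RPKM in the floral organs, against 31.0 RPKM in leaves and 64.9 RPKM in roots (gap 6.63, interval 4.95 to 9.03). Unigene59860, a homeodomain leucine zipper factor, had 10.6, 28.2, 30.2, 29.98, 23.5 and 3.94 RPKM in the floral organs, against 183 RPKM in leaves and 226 RPKM in roots (gap 6.07, interval 4.80 to 7.77). Kinases made up a further 3, namely Unigene62659 with a gap of 6.76, Unigene69605 with 6.15 and Unigene49881 with 5.49.

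**Figure D4:**
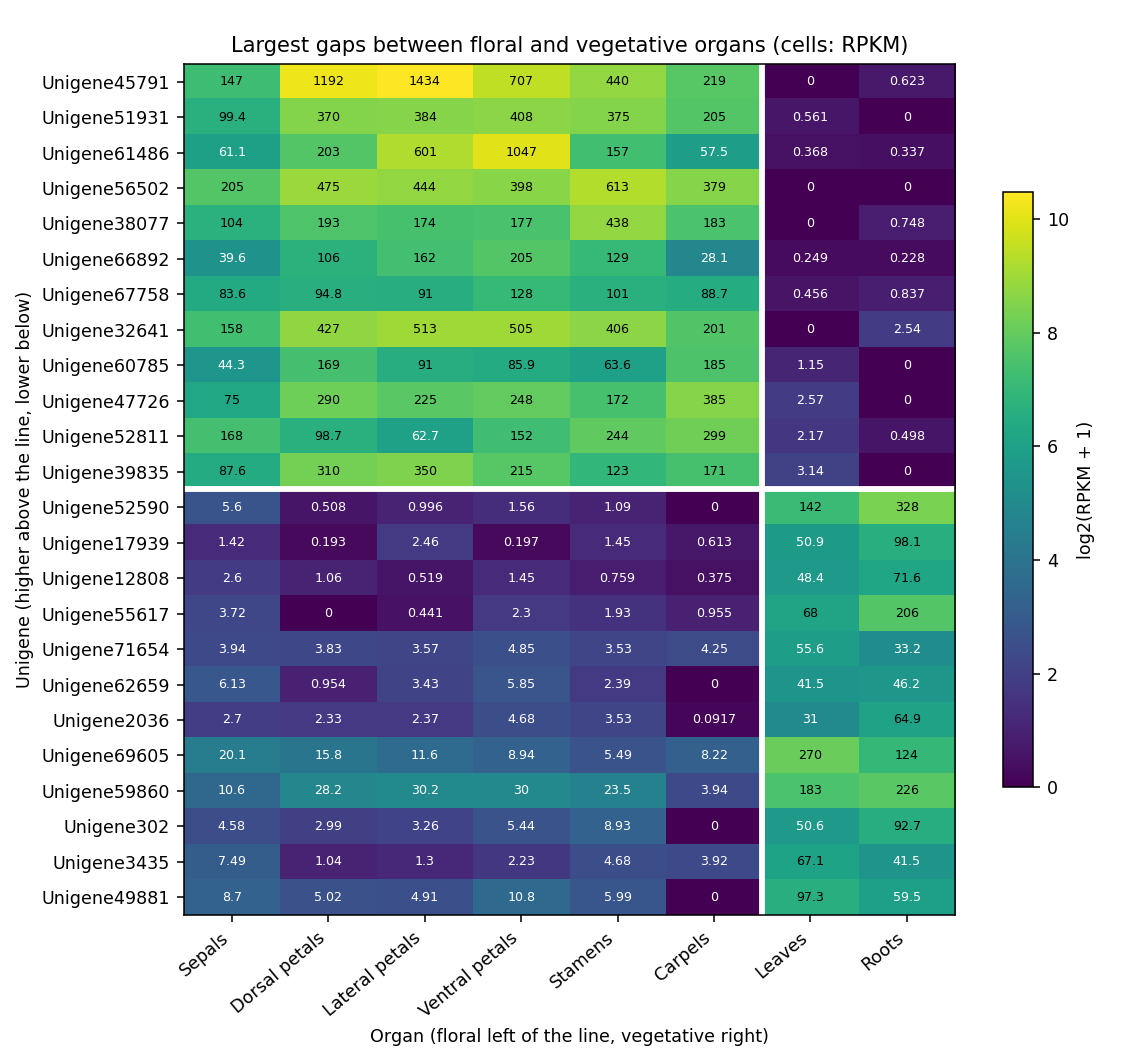
RPKM of the 12 named unigenes with the largest gaps among higher unigenes (above the line) and of the 12 among lower ones (below it), as numbers and as colour on a log2(RPKM + 1) scale, with 1 column per library, floral organs left and vegetative organs right. The floral cells of the higher unigenes lie at 28.1 RPKM or above and their vegetative cells at 3.14 RPKM or below. The floral cells of the lower unigenes lie at 30.2 RPKM or below and their vegetative cells at 31.0 RPKM or above.

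The cuticle, wax and lipid transfer list had the next largest share. Of its 105 unigenes, 32 were higher (30.5%), 3 were lower, 20 were higher by at least 2-fold (19.0%) and 1 was lower by at least 2-fold. Its median log2 ratio of class means was 1.71. The 20 were 12 GDSL lipases, which include enzymes of cutin assembly, 5 ketoacyl-CoA synthases, which lengthen the fatty acids of waxes, and 3 lipid transfer proteins. Carpels were the highest floral organ in 7 of the 12 GDSL lipases and in all 5 ketoacyl-CoA synthases, and sepals were the lowest in 7 and 5 of them.

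Single carpel values stood far above the rest of the flower in this list. Unigene70439, a GDSL lipase, had 8.44, 6.36, 11.9, 11.6, 20.7 and 865 RPKM in the floral organs, against 0.762 RPKM in leaves and 0 in roots (gap 8.35, interval 3.32 to 26.9). Unigene70050, a ketoacyl-CoA synthase, had 7.55, 30.5, 27.8, 14.9, 43.8 and 645 RPKM in the floral organs, against 0.657 RPKM in leaves and 0.151 RPKM in roots (gap 11.5, interval 4.24 to 43.7). Both gaps were set by the lowest floral organ, so they do not rest on carpels. Unigene19590, a lipid transfer protein, had 92.2, 1168, 1554, 1711, 2506 and 151 RPKM in the floral organs, against 16.0 RPKM in leaves and 1.13 RPKM in roots (gap 5.77, interval 3.20 to 11.3). It was highest in stamens and petals. The lower member, Unigene32855, another lipid transfer unigene, had 0, 0, 0, 4.36, 5.503 and 11.8 RPKM in the floral organs, against 70.9 RPKM in leaves and 760 RPKM in roots (gap 6.02, interval 3.32 to 11.8).

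**Figure D5:**
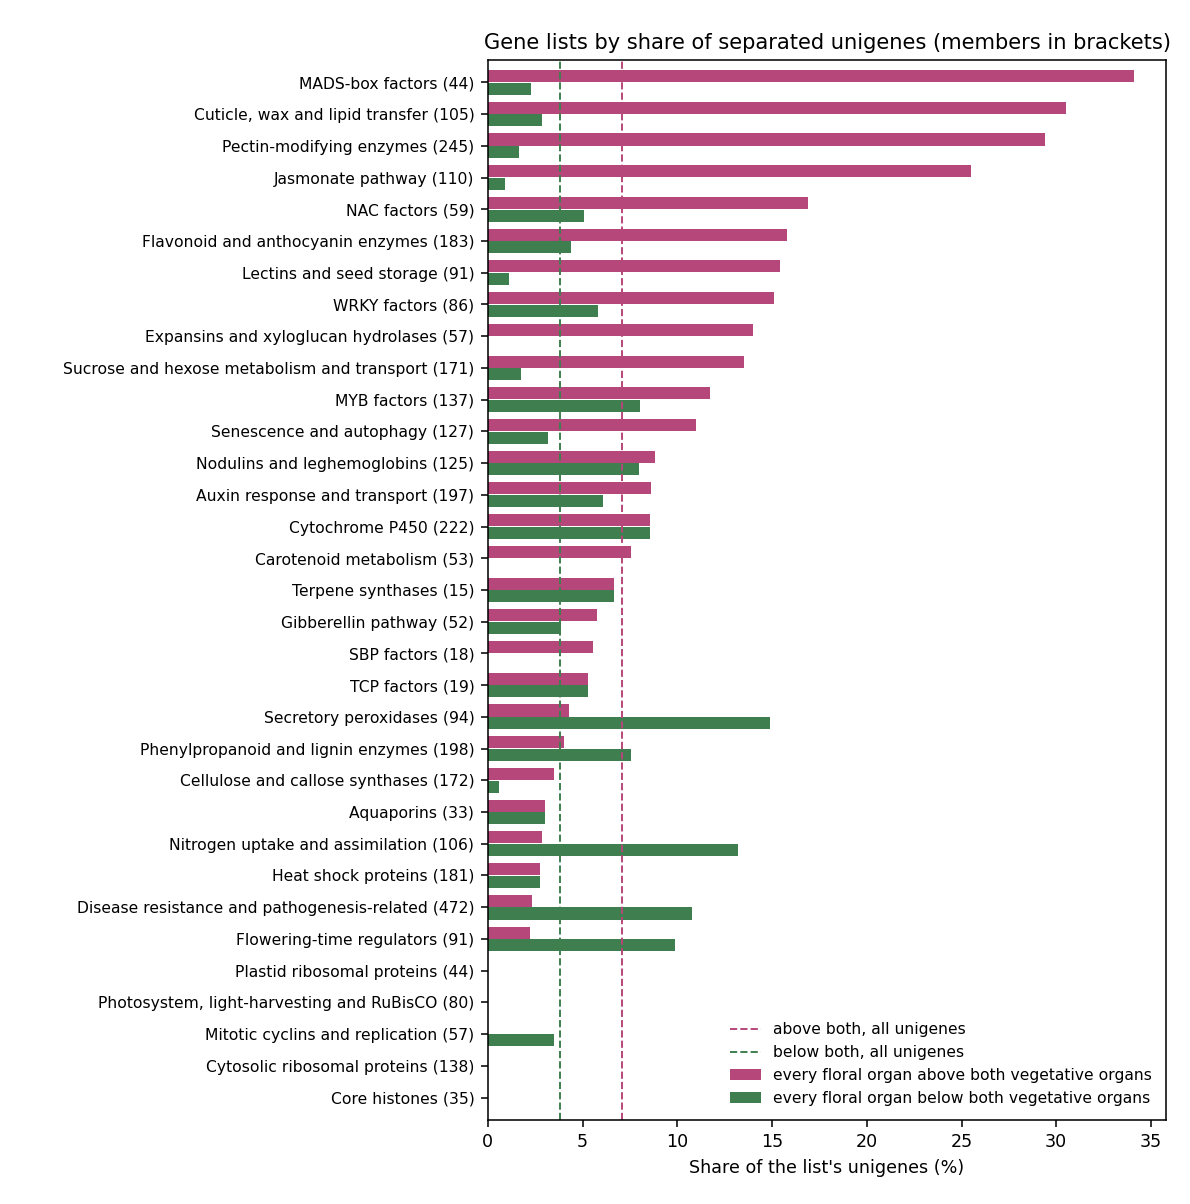
Share (%, horizontal axis) of each gene list's unigenes for which every floral organ lay above both vegetative organs (upper bar of each pair) or below both (lower bar), with the number of unigenes in brackets and the shares over all unigenes, 7.06% and 3.83%, as dashed lines. MADS-box factors have the largest share above (34.1%) and secretory peroxidases the largest share below (14.9%).

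Of the jasmonate pathway unigenes, lipoxygenases and allene oxide synthases make the hormone and JAZ proteins repress its responses. Of 110 such unigenes, 28 were higher (25.5%, beside 7.06% of all unigenes) and 1 was lower. Before wrong word matches were left out, 29 of 121 were higher (24.0%), 3 were lower and 1 was lower by at least 2-fold. The 14 of the 110 that were higher by at least 2-fold (12.7%, beside 1.38%) were 10 of 75 lipoxygenases, 2 of 12 allene oxide synthases and 2 of 2 JAZ unigenes. The list's median log2 ratio of class means was 0.57. Lipoxygenases also make products other than jasmonate.

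Unigene4609, a lipoxygenase, was among the most abundant members, with 718, 1123, 586, 1668, 601 and 1670 RPKM in the floral organs, against 45.7 RPKM in leaves and 94.5 RPKM in roots (gap 6.20, interval 5.75 to 6.68). Its floral organs lay within about 3-fold of each other. Unigene52531, a 5-lipoxygenase, had 348, 767, 699, 312, 106 and 16.8 RPKM in the floral organs, against 7.15 RPKM in leaves and 0 in roots (gap 2.35, interval 1.19 to 4.88). It was high in sepals and petals, and the carpels came close to the leaves. Unigene62167, a JAZ unigene, had 239, 114, 129, 268, 345 and 1363 RPKM in the floral organs, against 43.4 RPKM in leaves and 55.6 RPKM in roots (gap 2.05, interval 1.71 to 2.48). The other JAZ unigene, Unigene35129, had 63.5, 35.8, 48.6, 181, 231 and 243 RPKM in the floral organs, against 15.8 RPKM in leaves and 2.41 RPKM in roots. Both JAZ unigenes were highest in carpels and lowest, within the flower, in dorsal petals.

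Allene oxide synthase Unigene48748 had 19.6, 96.5, 113, 105, 119 and 34.3 RPKM in the floral organs, against 6.23 RPKM in leaves and 1.71 RPKM in roots. Allene oxide synthase Unigene54134 had 24.6, 132, 153, 123, 123 and 70.1 RPKM in the floral organs, against 9.81 RPKM in leaves and 1.42 RPKM in roots. The 2 unigenes had the same floral pattern, with petals and stamens above carpels and carpels above sepals.

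Flavonoid and anthocyanin enzymes make petal pigments and other phenolics, and 29 of 183 unigenes were higher (15.8%), 8 were lower and 10 were higher by at least 2-fold (5.46%). Of the 29, 15 were highest in lateral petals. The median log2 ratio of class means was 0.63. Unigene67121, a flavonoid 3′,5′-hydroxylase, the enzyme class that leads to blue delphinidin pigments, had 14.3, 305, 703, 185, 65.9 and 50.03 RPKM in the floral organs, against 0.973 RPKM in leaves and 6.24 RPKM in roots (gap 2.29, interval 1.46 to 3.69). Unigene56653, of the same enzyme class, had 7.90, 86.0, 226, 74.3, 37.9 and 24.2 RPKM in the floral organs, against 0 in leaves and 3.83 RPKM in roots (gap 2.07, interval 0.899 to 5.15). These 2 unigenes, for which primers are printed above, had the same order of floral organs, and whether they are fragments of one gene was not tested. Lateral petals were highest in both and sepals the lowest floral organ, and the interval of the second gap includes 1.

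Unigene48278, an anthocyanidin glucosyltransferase, which adds sugar to the pigment, had 26.4, 209, 309, 195, 106 and 8.07 RPKM in the floral organs, against 1.26 RPKM in leaves and 0 in roots (gap 6.39, interval 1.45 to 58.4). It too was highest in lateral petals. Unigene47623, an isoflavonoid malonyltransferase, had 29.1, 163, 203, 227, 185 and 161 RPKM in the floral organs, against 13.5 RPKM in leaves and 0.591 RPKM in roots (gap 2.15, interval 1.28 to 3.75). Its sepals lay nearer to the leaves than to any other floral organ.

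The other unigenes of the printed primers were also highest in petals. Unigene46279, which matched an ABC transporter name, had 54.2, 126, 248, 631, 20.7 and 29.0 RPKM in the floral organs, against 0 in both leaves and roots (gap 10.3 against 3 reads, interval from 7.88). Unigene71433, a cytochrome P450 named CYP96A8, had 11.7, 49.9, 192, 88.3, 7.599 and 19.2 RPKM in the floral organs, against 2.47 RPKM in leaves and 0.206 RPKM in roots (gap 3.08, interval 1.88 to 5.23). Unigene52509, with no known function, had 7.49, 26.5, 94.9, 19.8, 18.6 and 14.6 RPKM in the floral organs, against 1.65 RPKM in leaves and 0 in roots (gap 4.54, interval 1.30 to 24.3). The first was highest in ventral petals and the other 2 in lateral petals. Among the 9 primer unigenes that were higher but outside the 2-fold set was the CYCLOIDEA-like Unigene18024, of a family that controls dorsal petal form, with 3.32, 32.0, 28.5, 1.05, 0.369 and 0.182 RPKM in the floral organs, against 0 in both leaves and roots. Its stamens and carpels held so few reads that its place above the vegetative organs lies within counting error.

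Of 198 phenylpropanoid and lignin enzyme unigenes, 8 were higher (4.04%, beside 7.06% of all unigenes) and 15 lower (7.58%, beside 3.83%), and 3 were higher and 5 lower by at least 2-fold. The named higher members were 2 caffeic acid O-methyltransferases and a cinnamoyl-CoA reductase, and the 3 named lower members were all cinnamyl alcohol dehydrogenases, which form the alcohols that are joined into lignin. The methyltransferase Unigene44022 had 59.9, 176, 183, 112, 127 and 208 RPKM in the floral organs, against 11.4 RPKM in leaves and 14.3 RPKM in roots (gap 4.18, interval 2.62 to 6.97). The dehydrogenase Unigene2534 had 14.5, 7.88, 10.1, 9.29, 5.86 and 1.93 RPKM in the floral organs, against 86.9 RPKM in leaves and 68.3 RPKM in roots (gap 4.72, interval 3.06 to 7.53). The dehydrogenase Unigene21577 had a gap of 3.61 and the dehydrogenase Unigene8845 one of 2.43. Unigene33506, a caffeoyl-CoA O-methyltransferase, was highly expressed in some petals but was no member, with 84.2, 2584, 4344, 391, 2.71 and 0 RPKM in the floral organs, against 0 in both leaves and roots.

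In the carotenoid list, 4 of 53 unigenes were higher (7.55%, beside 7.06% of all unigenes) and 0 were lower, and the first share is close to the background. The median log2 ratio of class means was -0.57. The list summed to between 954 and 4441 RPKM in the floral organs, against 7946 RPKM in leaves and 697 RPKM in roots. All 3 of those higher by at least 2-fold were 9-cis-epoxycarotenoid dioxygenases, which make the precursor of abscisic acid and do not colour the petal. Unigene71481 had 29.8, 22.2, 20.7, 49.7, 53.3 and 23.5 RPKM in the floral organs, against 5.92 RPKM in leaves and 1.81 RPKM in roots (gap 3.50, interval 2.58 to 4.81). Unigene52489 had a gap of 3.61 and Unigene21174 a gap of 2.27, and all 3 were higher in ventral petals and stamens than in the other floral organs.

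Sucrose and hexose unigenes were higher in 23 of 171 (13.5%) and lower in 3, with 10 higher and 1 lower by at least 2-fold. The median log2 ratio of class means was 0.79, and stamens were the highest floral organ in 14 of the 23. The 10 included 5 MtN3 unigenes of 15 and 3 invertases of 59, which split sucrose. The 5 MtN3 unigenes had gaps between 8.99 and 177, and all 5 MtN3 members lay in the 2-fold set. Unigene59305, an MtN3 unigene, had 86.3, 48.1, 33.3, 65.6, 130 and 148 RPKM in the floral organs, against 3.70 RPKM in leaves and 0 in roots (gap 8.99, interval 4.53 to 20.3). Like Unigene52811, it was highest in carpels and lowest, among floral organs, in lateral petals. Unigene71220, a hexose transporter, was lower, with 7.90, 3.39, 3.21, 5.09, 22.8 and 25.8 RPKM in the floral organs, against 66.8 RPKM in leaves and 113 RPKM in roots (gap 2.59, interval 2.21 to 3.05).

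Pectin-modifying enzymes, which loosen or stiffen the wall and are abundant in pollen tubes, were higher in 72 of 245 unigenes (29.4%) and lower in 4. The 2-fold set held 3 of them as higher (1.22%, beside 1.38% of all unigenes) and 1 as lower, and the list's median log2 ratio of class means was 1.71. Of the 3, Unigene25243 was named a polygalacturonase inhibitor, a name that the word search also matched. Stamens were the highest floral organ in 46 of the 72, and the median number of reads in their lowest floral library was 4, below the 10 that the 2-fold set requires. Gaps reached 4.29 in pectinesterases and 4.26 in pectate lyases, of which 2 and 0 were in the 2-fold set. Like the pollen and anther markers given above, the list had its highest sum in stamens (58272 RPKM). The next highest floral organ was ventral petals (25095 RPKM) for this list but carpels for those markers. This list summed to 9421 RPKM in carpels. The part of pollen and anther unigenes in the count was not tested. Unigene55992, a pectinesterase, had 155, 148, 121, 234, 147 and 104 RPKM in the floral organs, against 28.7 RPKM in leaves and 24.97 RPKM in roots (gap 3.64, interval 2.73 to 4.93), and was highest in ventral petals. Unigene68604, a polygalacturonase, was not a member, with 0.526, 8.97, 6.73, 225, 882 and 5.26 RPKM in the floral organs, against 0.617 RPKM in leaves and 0 in roots. Expansins and xyloglucan hydrolases, which also act on the wall, were higher in 8 of 57 unigenes (14.0%) and lower in 0. The alpha-expansin Unigene35440 had 238, 47.6, 44.2, 72.5, 67.5 and 149 RPKM in the floral organs, against 5.22 RPKM in leaves and 1.59 RPKM in roots (gap 8.48, interval 3.66 to 24.1). It was highest in sepals, as were 41 of the 991 higher unigenes.

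Transcription factors other than MADS-box factors showed smaller shares. WRKY factors, known for defence and stress responses, were higher in 13 of 86 (15.1%) and lower in 5, and NAC factors in 10 of 59 (16.9%) and lower in 3. MYB factors were higher in 16 of 137 (11.7%) and lower in 11 (8.03%), but with TMM scaling 12 were higher and 14 lower, so their balance turned with the scaling. SBP factors were higher in 1 of 18 and lower in 0, and TCP factors were higher in 1 of 19 and lower in 1.

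Unigene63817, WRKY40-like, had 55.0, 80.5, 41.9, 135, 87.7 and 49.1 RPKM in the floral organs, against 3.50 RPKM in leaves and 1.17 RPKM in roots (gap 12.0, interval 6.5003 to 24.5). Unigene45645, a NAC unigene, had 146, 245, 269, 393, 406 and 536 RPKM in the floral organs, against 33.4 RPKM in leaves and 22.5 RPKM in roots (gap 4.36, interval 3.20 to 6.05). The NAC unigene had its lowest floral level in sepals and its highest in carpels. Unigene48686, an R2R3 MYB unigene, had 34.6, 347, 354, 431, 441 and 77.5 RPKM in the floral organs, against 0 in both leaves and roots (gap 18.5 against 3 reads, interval from 14.6). Its petals and stamens were at least 10 times its sepals.

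Other members of the MYB family were lower. Unigene10102, MYB59-like, had 18.9, 1.95, 1.60, 1.83, 1.22 and 0.346 RPKM in the floral organs, against 87.1 RPKM in leaves and 63.1 RPKM in roots (gap 3.35, interval 2.73 to 4.12). Sepals stood well above the other floral organs. Flowering-time regulators were lower in 9 of 91 unigenes (9.89%) and higher in 2 (2.20%). The single one lower by at least 2-fold was Unigene59869, like SUPPRESSOR OF OVEREXPRESSION OF CONSTANS of pea, a MADS-box factor that promotes the switch to flowering in Arabidopsis. It had 2.05, 1.48, 0.727, 0.759, 0 and 0.394 RPKM in the floral organs, against 21.6 RPKM in leaves and 7.70 RPKM in roots (gap 3.77, interval 1.47 to 11.4).

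Of 197 auxin response and transport unigenes, 17 were higher (8.63%, beside 7.06% of all unigenes) and 12 lower (6.09%, beside 3.83%), and the first share is close to the background. Unigene19723, an Aux/IAA repressor, had 9.36, 48.7, 29.97, 42.9, 114 and 119 RPKM in the floral organs, against 371 RPKM in leaves and 244 RPKM in roots (gap 2.05, interval 1.61 to 2.63). It left the 2-fold set with TMM scaling, where its log2 gap was 0.64.

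Nitrogen uptake and assimilation unigenes were lower in 14 of 106 (13.2%, beside 3.83% of all unigenes) and higher in 3, with 5 lower (4.72%) and 1 higher by at least 2-fold. The median log2 ratio of class means was -0.63. Nitrite and nitrate reductases, which reduce nitrate towards ammonium, were lower in 7 of 18 and higher in 0, and 3 of the 7 were lower by at least 2-fold. Unigene49821, a ferredoxin-nitrite reductase, had 63.2, 21.2, 4.38, 16.6, 12.0 and 1.19 RPKM in the floral organs, against 316 RPKM in leaves and 375 RPKM in roots (gap 5.001, interval 4.10 to 6.14). Unigene24307, a nitrite reductase too, had 76.8, 20.4, 13.0, 14.6, 9.86 and 2.16 RPKM in the floral organs, against 297 RPKM in leaves and 317 RPKM in roots (gap 3.87, interval 3.01 to 5.01). Both had the same order at the ends, with sepals the highest and carpels the lowest floral organ.

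Unigene5518, a nitrate transporter, had 20.3, 0.933, 7.16, 15.3, 17.4 and 0.989 RPKM in the floral organs, against 50.3 RPKM in leaves and 42.9 RPKM in roots (gap 2.11, interval 1.72 to 2.61). The higher member was Unigene47669, a glutamine synthetase with 9.88, 92.0, 112, 92.3, 69.98 and 18.4 RPKM in the floral organs, against 4.51 RPKM in leaves and 1.18 RPKM in roots. Its gap of 2.19 had an interval of 0.873 to 6.21, which includes 1.

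Secretory peroxidases were lower in 14 of 94 unigenes (14.9%) and higher in 4, and 0 were in the 2-fold set in either direction. The separation was larger from roots than from leaves, since every floral organ lay below roots in 57 of the 94 (60.6%, beside 21.1% of all unigenes), and below leaves in 16 (17.0%, beside 14.5%). The median log2 ratio of class means was -1.60. Disease resistance unigenes were lower in 51 of 472 (10.8%) and higher in 11, but 3 were lower by at least 2-fold. They are weakly expressed as a group: among those with 30 or more reads on average 8 were lower, with TMM scaling 78 were, and without the sepals 106 were.

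Cytochrome P450 unigenes, a large family of oxidases, were higher in 19 of 222 (8.56%, beside 7.06% of all unigenes) and lower in 19 (8.56%, beside 3.83%). The share of higher ones is close to the background. With TMM scaling 12 were higher and 23 lower. By at least 2-fold 2 were higher (0.901%, beside 1.38%) and 9 lower (4.05%, beside 0.369%). Unigene44097 was an abundant higher one, with 247, 925, 1385, 1079, 399.97 and 95.8 RPKM in the floral organs, against 44.8 RPKM in leaves and 29.96 RPKM in roots (gap 2.14, interval 1.58 to 2.93). Unigene1859 was a lower one, with 0 RPKM in all 6 floral organs, against 13.9 RPKM in leaves and 45.3 RPKM in roots, where 41 and 146 reads were counted. Its gap was 13.7 against 3 reads (interval from 12.5), and it was the single unigene of the lower 2-fold set without a read in any floral library. The P450 list thus held petal-high unigenes and unigenes near absent from the flower.

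Nodulins are a name given to genes found in root nodules of legumes. Of 125 such unigenes, 11 were higher (8.80%, beside 7.06% of all unigenes) and 10 lower (8.00%, beside 3.83%). The first share is close to the background. The MtN3 unigenes above belong here too by name. Unigene38593, an early nodulin, had 6.18, 0, 0, 0.764, 4.82 and 2.38 RPKM in the floral organs, against 53.2 RPKM in leaves and 1401 RPKM in roots (gap 8.61, interval 4.27 to 19.7). It was low in the flower and far above all other organs in roots. Unigene4545, of the MtN21 family, had 46.6, 45.5, 32.7, 37.6, 72.4 and 9.69 RPKM in the floral organs, against 0.958 RPKM in leaves and 2.38 RPKM in roots (gap 4.07, interval 2.43 to 7.14). The MtN21-like Unigene64428 was lower, with 26.7, 13.0, 8.57, 22.8, 27.6 and 4.79 RPKM in the floral organs, against 130 RPKM in leaves and 105 RPKM in roots (gap 3.80, interval 3.02 to 4.83). Members of one family thus lay on both sides.

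Some lists held no member. Of 80 photosystem, light-harvesting and RuBisCO unigenes 0 were higher and 0 lower, as were 0 of 44 plastid ribosomal, 0 of 138 cytosolic ribosomal and 0 of 35 core histone unigenes. For the photosystem list, every floral organ lay below leaves in 51 unigenes (63.8%, beside 14.5% of all unigenes) and above roots in 67 (83.8%, beside 15.6%). Sepals were the highest floral organ in 70 of the 80. The light-harvesting Unigene29229 had 3220, 200, 178, 331, 256 and 608 RPKM in the floral organs, against 8549 RPKM in leaves and 107 RPKM in roots, so the flower lay between the 2 vegetative organs. Core histones summed to 868 to 1856 RPKM in sepals, petals and stamens and to 18944 RPKM in carpels, against 635 RPKM in leaves and 3956 RPKM in roots. Cytosolic ribosomal unigenes were highest in carpels too, and summed to 94407 RPKM in carpels and to 6002 to 13460 RPKM in the other floral organs, against 7070 RPKM in leaves and 35148 RPKM in roots. For histones and cytosolic ribosomal proteins the range among floral organs was thus wider than that between leaves and roots.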

How the data were processed

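The read counts were deposited by the authors as whole numbers of reads uniquely aligned to each unigene, without normalization, for 1 library per organ. The unigenes were assembled by the authors de novo from pooled RNA of the organs, so no genome build applies, and the sources used here do not name the aligner or its settings. The authors made RPKM values from these counts, unigene lengths and library totals, and the percentage of each unigene covered by a read was deposited beside them. RPKM was recomputed here from the counts (largest relative difference 5.58e-09), and a unigene missing from a table was set to 0 reads. Reads shared by similar unigenes are not counted, and PCR reads without molecular identifiers are not independent molecules. Libraries held 5.35e+06 to 6.28e+06 reads, which limits the precision of low values.

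Libraries were grouped by the organ in their labels. Gap intervals are exact conditional binomial intervals at 95%. The calling rule was run on simulated counts with equal levels in all organs, counting noise only and large changes planted in well-read unigenes. Real floral organs differ more widely, so that run does not measure the error of the calls made here. The 33 gene lists and 6 marker lists are word searches in the first nr description, since that is the annotation the tables hold, and they may overlap. Wrong word matches were left out of the jasmonate, NAC, nitrogen and cyclin lists, and kinds within lists were counted, after the values were seen. Members and lists were chosen with earlier results of these data known. Named unigenes are the 12 largest gaps in each direction with 100 or more reads and a described match, up to 3 members with most reads in each list, direction and 2-fold set and the list's most read non-member, the primer unigenes, the marker unigenes and those next to the limit. Other MADS-box members of the 2-fold set, the second JAZ unigene and the allene oxide synthases were added after their values were seen, so that these groups are given whole. Alternatives changed the scaling, a minimum of 30 reads on average, equal depth by thinning, petals averaged, class means in place of extremes, and each library left out. No GO or qRT-PCR values were used. TMM factors came from edgeR 4.0.16 under R 4.3.3, intervals from scipy 1.17.1 and figures from matplotlib 3.10.9, and all else ran in Python 3.11.15 (pandas 2.3.3, numpy 2.4.6).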

Additional observations from a re-analysis of the deposited data

Results flagged for a closer look

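In 10 of the 59 named higher unigenes of the 2-fold set, 1 floral library lay far from the other floral libraries by Dixon's ratio, which is the gap to the nearest floral library over the floral range. The 10 lay above its 95% critical value for 6 values. Chance flags about 1 in 20 groups, and organs are not replicates, so the ratios describe how uneven the flower was. Carpels were high in 5 of the 10. The ratio was 0.983 for the GDSL lipase Unigene70439, with 865 RPKM in carpels and 20.7 RPKM in the nearest floral organ, and 0.943 for the ketoacyl-CoA synthase Unigene70050, with 645 and 43.8 RPKM. It was 0.815 for the JAZ unigene Unigene62167, with 1363 RPKM in carpels and 345 RPKM in the nearest floral organ. The WRKY unigenes Unigene54448 and Unigene44256 had ratios of 0.667 and 0.639, with 120 and 217 RPKM in carpels and 75.6 and 105 RPKM in the nearest floral organs.

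Petals or stamens were high in 4 others. The ratio was 0.782 for Unigene52509 and 0.642 for the flavonoid 3′,5′-hydroxylase Unigene56653, with 94.9 and 226 RPKM in lateral petals and 26.5 and 86.0 RPKM in the nearest floral organs. It was 0.627 for Unigene46279, with 631 RPKM in ventral petals and 248 RPKM in the nearest floral organ, and 0.733 for the SEPALLATA1-like Unigene38077, with 438 RPKM in stamens and 193 RPKM in the nearest floral organ. Sepals were low in the remaining one, the isoflavonoid malonyltransferase Unigene47623, with a ratio of 0.668, 29.1 RPKM in sepals and 161 RPKM in the nearest floral organ.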

How the results depend on the processing

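The counts of members depended on the scaling, on low values and on single libraries. Of 5051 higher unigenes, 4494 were called with TMM and 4771 with median-of-ratios scaling, and 4181 and 4153 of these were the same unigenes, while lower unigenes numbered 4549 and 4265 in place of 2737. In the 2-fold set 870 and 901 were higher, in place of 991, and 357 and 357 lower, in place of 264. With 30 or more reads on average 1130 were lower, and 128 by at least 2-fold. With class means in place of the extremes, 40115 were higher and 31438 lower, and 6093 and 4036 by at least 2-fold. An interval above 1, an alternative chosen after the data were seen, left 1475 higher and 491 lower. Leaving out 1 library keeps every member by construction and adds others: higher unigenes then numbered 5235 to 15196, lower ones 2952 to 15063, and those by at least 2-fold 1001 to 3549 and 278 to 4058. Without leaves, roots, carpels or sepals the higher counts were 11189, 15196, 9852 and 6320, and without leaves, roots or sepals the lower counts were 15063, 10350 and 4608. By at least 2-fold 3178, 3549 and 1965 were higher without leaves, roots or carpels, and 4058, 2872 and 645 lower without leaves, roots or sepals. With thinned counts or petals averaged, all 4 counts stayed within 1.5 times. Among named unigenes, 99 kept their log2 gap within its interval under TMM, 11 moved beyond it and 2 primer unigenes turned round, Unigene58410, log2 gap -0.33, and Unigene7101, log2 gap -0.21. The cause was not tested. Of the counts of higher or lower unigenes in gene lists, 13 moved by over 1.5 times under TMM (53 did not), 12 under median-of-ratios scaling (54), 19 with 30 or more reads on average (47) and 169 with 1 library left out (359). No paired analysis was possible because each organ has 1 library. The single libraries limit every statement to these libraries, and values of a few reads are limited by depth.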
